A study of Mus musculus with 12 samples.

Results

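Genes of glycolysis and of the response to low oxygen were followed in the hypertrophic zone of the growth plate, the layer of enlarged chondrocytes that precedes bone, in mice whose chondrocytes hold a misfolding protein. The genes were chosen by symbol: 38 were looked up in the annotation of a whole mouse genome array, 37 were found, and they were measured by 66 of the 41174 probes, against 27962 gene symbols in all. The symbol Gapdh was not found, so that enzyme was not analysed here. Schmid mice carried the mutation Col10a1 p.Asn617Lys in collagen X and were homozygous, as the study's figure legends describe them. Cog mice carried ColXTgcog, a transgene in which the collagen X promoter drives a misfolding form of thyroglobulin, a protein that chondrocytes do not normally make, and mice with 1 or 2 copies were not told apart. Wildtype littermates of the Schmid background (Wt_Schmid) and of the Cog background (Wt_Cog) were the controls. All 4 groups were 14 days old and held 3 mice each. The zone was cut by scalpel from frozen sections of 1 tibia per mouse, so the 12 arrays are separate animals and their number limits the precision.

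Cells sense oxygen through prolyl hydroxylases, the Egln enzymes, which mark the HIF alpha subunits for destruction by the Vhl ubiquitin ligase complex. When oxygen is low, HIF alpha persists, pairs with Arnt and binds the hypoxia response element, whose core letters are ACGTG or GCGTG, and glucose carriers, glycolytic enzymes and mitophagy genes are among the targets. The growth plate has few vessels, and chondrocytes are known to depend on HIF1 alpha for survival and on glycolysis for energy.

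A spot was read as log2 signal after background correction and quantile normalization, and a gene with several probes was given by its brightest probe. A change was called where limma's adjusted p over all probes was at most 0.05 and the fold change was at least 2. The brightest probe was well above background on all 12 arrays for 29 of the 37 genes and on 2 arrays for Eno1, and no member probe was saturated. Spots well above background made up 58.9% to 61.8% on the 3 Schmid arrays and 39.6% to 59.4% on the other 9, and the median of the negative controls was dimmer on the Schmid arrays (202 to 617 against 977 to 1894). The Schmid arrays had a slide to themselves, and neither mutant shared a slide with its own wildtype, so genotype and slide cannot be told apart. Chondrocyte markers were bright in every group, but the log2 of their summed signal over 9 genes was lowest on the Schmid arrays. It was 20.63 to 20.77 in Schmid, 20.99 to 21.33 in Wt_Schmid, 20.96 to 21.18 in Cog and 20.94 to 21.16 in Wt_Cog. Col10a1, the mutated gene, differed by -0.02 between Schmid and its wildtype, which checks no label because the mutation changes 1 residue. Of the 8 hypertrophic markers, Ihh, Pthr1 and Akp2 were called lower in Schmid, where 5.75% of all genes were. Ihh was also called lower in Cog, where 0.837% of all genes were. Endothelial markers were lower in Schmid for 5 of 8 measured genes, with a log2 of the summed signal of 13.02 to 13.68 against 15.00 to 15.76. Red cell markers were lower for 3 of 9, at 14.73 to 16.13 against 17.96 to 19.96.

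Of the 37 glycolysis and hypoxia response genes, 10 were called higher in Schmid than in its wildtype and 2 lower, beside 5.80% of all 27962 genes called higher and 5.75% called lower. A further 5 higher and 2 lower members passed the adjusted p at less than 2-fold, beside 1271 higher and 2542 lower of all 27962 genes. The adjusted p was not passed by 18 members, beside 20920 of all genes. The median log2 difference of the 37 genes was 0.44 against -0.09 over all genes, with a range from -2.24 to 3.14. The 3 Schmid arrays were higher than each of the 3 wildtype arrays for 20 genes and lower for 4, where 18.7% and 27.7% of all genes did so. Of the 27962 genes, 10427 were well above background on all 12 arrays, and of these 8.74% were called higher and 11.3% lower. Among the 29 members of that kind, 6 were called higher and 1 lower. By role, the median log2 difference was 1.36 for oxygen sensing, 0.11 for glucose and lactate transport, 0.44 for hexose phosphorylation up to fructose bisphosphate, 0.31 for the fructose 2,6-bisphosphate enzymes, 0.58 for lower glycolysis, 0.12 for the fate of lactate and pyruvate and 1.50 for the effectors Bnip3, Bnip3l, Ddit4, Ndrg1 and Adm. In bulk tissue, fewer cells of a type and less RNA per cell cannot be told apart.

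**Figure D1:**
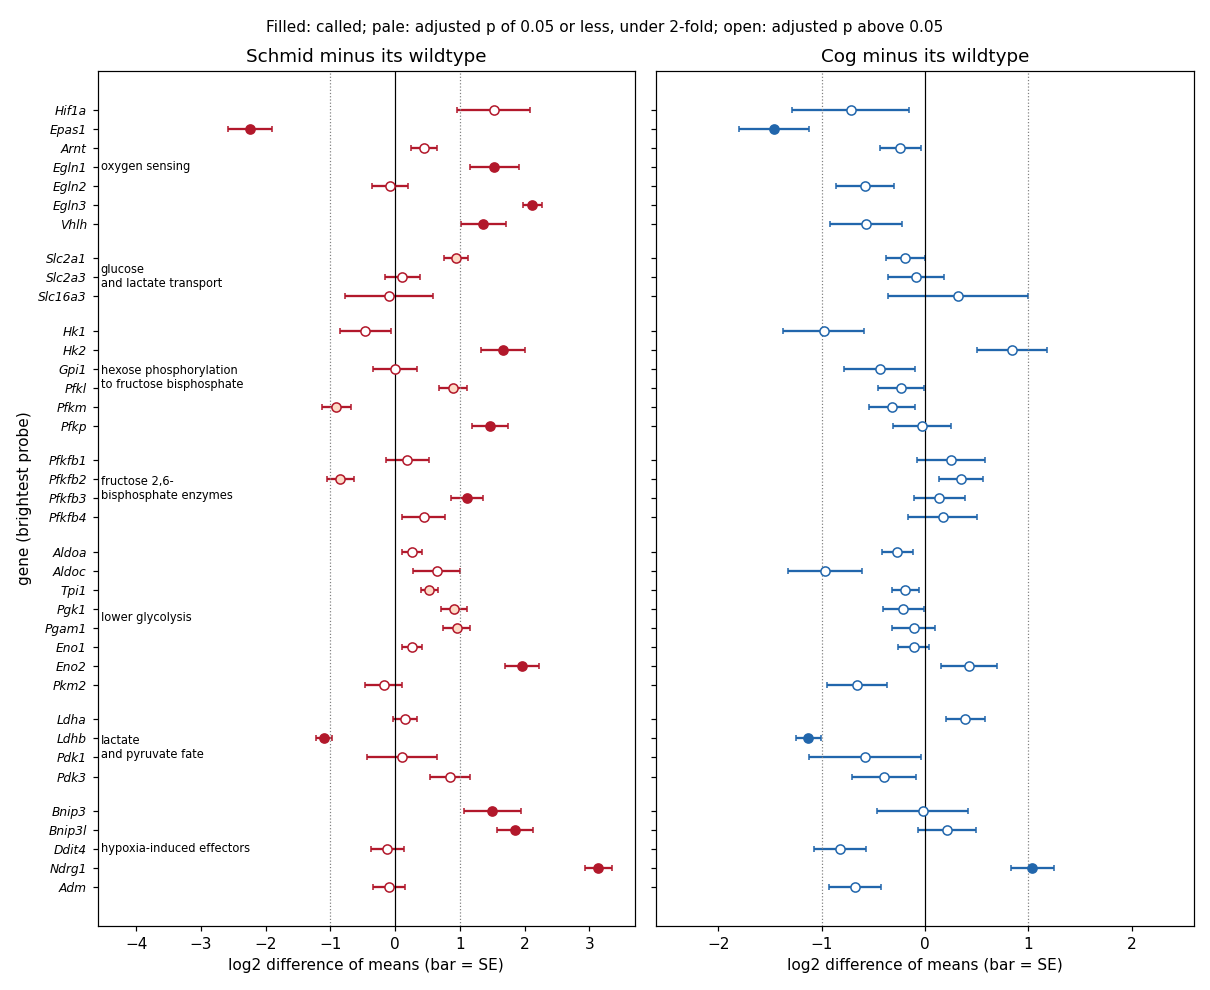
Log2 difference of means with its standard error for the 37 genes at their brightest probe, grouped by role, in Schmid against Wt_Schmid and in Cog against Wt_Cog (3 arrays per group). Egln1 and Egln3 are not drawn in the Cog panel. Filled points were called, pale points passed the adjusted p at less than 2-fold, and most points right of zero in Schmid stand near zero or left of it in Cog.

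**Figure D2:**
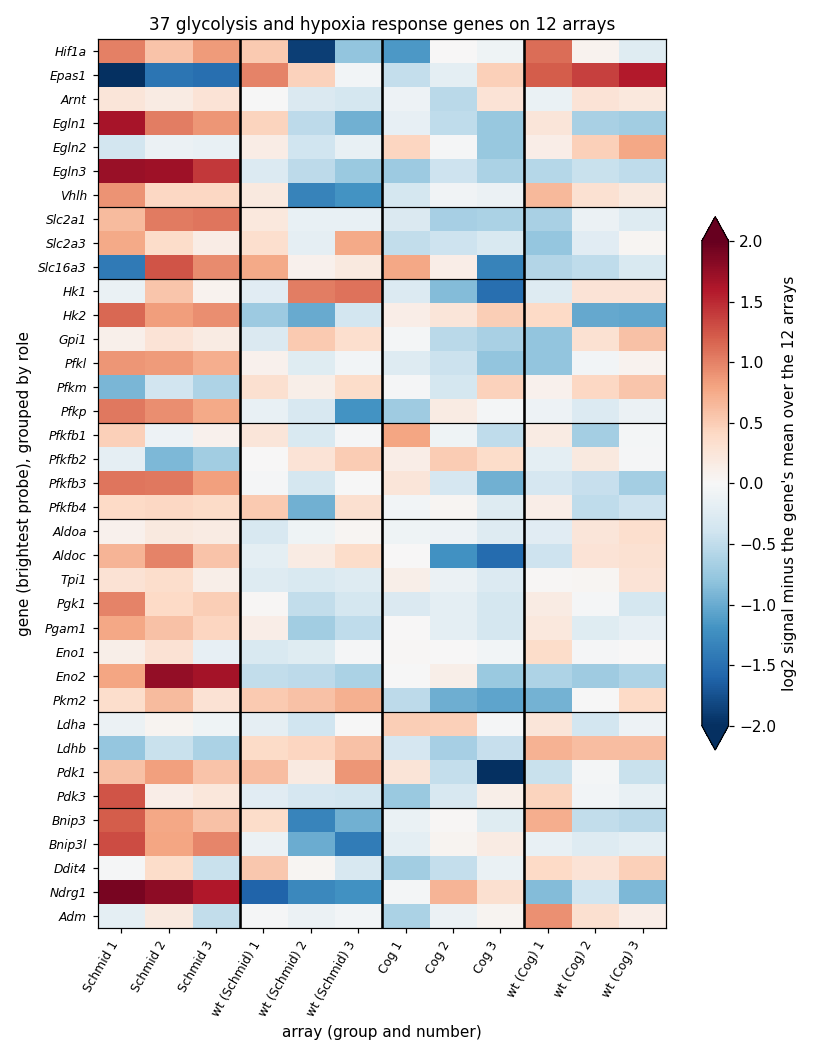
Log2 signal of each gene's brightest probe on each of the 12 arrays, minus that gene's mean over the arrays, with genes grouped by role. The 3 Schmid columns hold most of the high values, and the column of Wt_Schmid replicate 1 is high for more genes than those of the other 2 wildtype arrays beside it.

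Promoters of the genes called higher in Schmid are shown because the hypoxia response element is the sequence that HIF is known to bind. Promoter windows of 300 bases, from 250 before to 50 after a RefSeq transcript start (GRCm38.p6), were listed for 33 of the 37 genes, with Vhl standing for the older symbol Vhlh. Epas1, Slc2a3, Bnip3l and Ndrg1 had no window in the table used. The stretches below lie upstream of the start on the minus strand, are written 5′ to 3′, and carry in capitals the core letters ACGTG or GCGTG, or their reverse complements CACGT and CACGC.
Bnip3 (chr7:138909576-138909648): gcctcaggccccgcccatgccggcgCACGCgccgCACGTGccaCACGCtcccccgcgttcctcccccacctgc
Egln1 (chr8:124949293-124949347): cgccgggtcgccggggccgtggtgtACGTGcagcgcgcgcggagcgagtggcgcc
Egln3 (chr12:54204074-54204124): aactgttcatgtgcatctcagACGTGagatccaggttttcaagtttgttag
Hk2, distal (chr6:82774651-82774704): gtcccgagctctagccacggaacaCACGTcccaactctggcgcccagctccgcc
Hk2, proximal (chr6:82774477-82774531): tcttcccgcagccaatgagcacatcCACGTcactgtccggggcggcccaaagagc
Pfkfb3, upstream start (chr2:11553960-11554014): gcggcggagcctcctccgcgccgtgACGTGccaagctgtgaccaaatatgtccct
Pfkfb3, downstream start (chr2:11502113-11502168): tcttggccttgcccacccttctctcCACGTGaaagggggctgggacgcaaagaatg
Pfkp (chr13:6648772-6648864): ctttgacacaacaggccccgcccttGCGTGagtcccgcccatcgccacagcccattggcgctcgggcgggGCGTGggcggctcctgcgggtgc

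The Bnip3 stretch held 4 cores, and the Hk2 promoter held 2 that read CACGT, on the other strand. Either core, on either strand and with overlaps counted, was present in at least 1 window of 29 of 33 members (87.9%), beside 46.7% of 27025 symbols in the table. By window, a share in which a gene with more windows weighs more, it was in 76.9% of 52 member windows. Of all 32851 windows, 43.8% held it. ACGTG was present in 20 members (60.6%), beside 21.8% of all symbols, and GCGTG in 22 (66.7%), beside 35.2%. The letters did not separate the members by response: 6 of the 8 listed members called higher in Schmid held a core and 23 of the 25 others did, while the windows of Eno2 and Vhl held none. By window, these shares were 77.8% of 9 and 76.7% of 43. Members also had more CG pairs per window than all promoters, with a median of 19.5 against 7, and their part in the count of cores was not tested. The letters TGATGNAA, a C/EBP-ATF composite site, were in no member window and in 4.51% of all symbols. A match describes letters and is no measured binding.

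Among the oxygen sensing genes, the hydroxylases Egln1 and Egln3 and the ligase subunit Vhlh were higher in Schmid, and the HIF alpha subunit Epas1 was lower. Egln3, which hydroxylates HIF alpha and is itself induced by it, had log2 signals of 11.47, 11.45 and 11.16 in Schmid, 9.48, 9.22 and 9.01 in Wt_Schmid, 9.02, 9.33 and 9.12 in Cog, and 9.17, 9.30 and 9.24 in Wt_Cog. Only the Schmid arrays stood apart, and outside Schmid the probe was well above background on 1 array of 9. Egln3 was 4.35-fold higher in Schmid, a log2 difference of 2.12 ± 0.15 (SE, n = 3 and 3, limma adjusted p = 4.5e-05). Egln1, the main oxygen sensor of the family, read 11.66, 11.04 and 10.90 in Schmid, 10.46, 9.49 and 9.05 in Wt_Schmid, 9.85, 9.50 and 9.26 in Cog and 10.25, 9.37 and 9.32 in Wt_Cog. The Schmid arrays lay above all others, and the difference was 1.53 ± 0.38 or 2.89-fold (limma adjusted p = 0.016). The Egln1 call was lost without Schmid replicate 1 (log2 difference 1.30), without Wt_Schmid replicate 2 (1.44) and without Wt_Schmid replicate 3 (1.22), and also with the scanner's processed signal after quantile normalization (3.14, adjusted p = 0.074). Its dimmer probe was above background on no array, and with the mean of both probes the difference was 0.66 (adjusted p = 0.031), under 2-fold. Neither Egln probe was above background on any Cog array, so no fold change in Cog is given for them, and Egln2 differed by -0.08 in Schmid (limma adjusted p = 0.87).

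Vhlh read 12.01, 11.53 and 11.53 in Schmid, 11.31, 9.77 and 9.92 in Wt_Schmid, 10.76, 11.04 and 10.99 in Cog, and 11.76, 11.42 and 11.30 in Wt_Cog. Schmid lay above its wildtype and Cog lay below its own, with Wt_Schmid replicate 1 close to the mutant. Vhlh was 2.57-fold higher in Schmid (1.36 ± 0.35, limma adjusted p = 0.019), and its Cog difference was -0.57 (adjusted p = 0.38). The Schmid call was lost with only the groups compared in the fit (adjusted p = 0.072) and without Schmid replicate 1 (1.20), Wt_Schmid replicate 2 (1.08) or Wt_Schmid replicate 3 (1.15). Hif1a, the alpha subunit of HIF1, read 12.84, 12.41 and 12.69 in Schmid, 12.37, 9.96 and 11.05 in Wt_Schmid, 10.69, 11.85 and 11.76 in Cog, and 12.95, 11.91 and 11.59 in Wt_Cog. Its groups did not overlap in Schmid but the wildtype spread was wide, and the difference of 1.52 ± 0.57 did not pass the test (limma adjusted p = 0.075). It passed under 6 of 29 alternatives, and without Wt_Schmid replicate 1 the difference was 2.14 (adjusted p = 0.01). Hif1a in Cog differed by -0.72 (adjusted p = 0.51), and Arnt, the beta subunit, by 0.44 in Schmid (adjusted p = 0.13).

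Epas1, the HIF2 alpha subunit, went the other way, with 9.33, 10.25 and 10.21 in Schmid, 12.70, 12.17 and 11.65 in Wt_Schmid, 11.23, 11.51 and 12.19 in Cog, and 12.92, 13.08 and 13.30 in Wt_Cog. Both mutants lay below their own wildtype on every array. Epas1 fell by 2.24 ± 0.34 in Schmid on the log2 scale, 4.72-fold (limma adjusted p = 0.0015), and by 1.46 ± 0.34 in Cog, 2.75-fold (adjusted p = 0.038). With the mean of all Epas1 probes the Schmid difference was -0.94, under 2-fold, and the call was lost. The Cog call was lost under 16 of 29 alternatives, among them leaving out Cog replicate 1 (log2 difference -1.25) or Cog replicate 2 (-1.39), any of the Wt_Cog replicates (-1.55, -1.47 and -1.36), and, through the shared spread and at an unmoved difference of -1.46, Schmid replicate 2, Schmid replicate 3 or Wt_Schmid replicate 2. Epas1 is known to be abundant in endothelium, and the endothelial markers moved with it. Of these, 5 of 8 were called lower in Schmid (Cldn5, Emcn, Kdr, Flt1 and Cdh5) and 1 in Cog (Cldn5), and Pecam1 was above background on no array. The log2 of the markers' summed signal was 14.49 to 15.17 in Cog against 15.43 to 15.98 in Wt_Cog. Their part in the result was not tested. The dimmer Epas1 probe, above background on no wildtype array of the Schmid background, differed by 0.35 (adjusted p = 0.68).

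**Figure D3:**
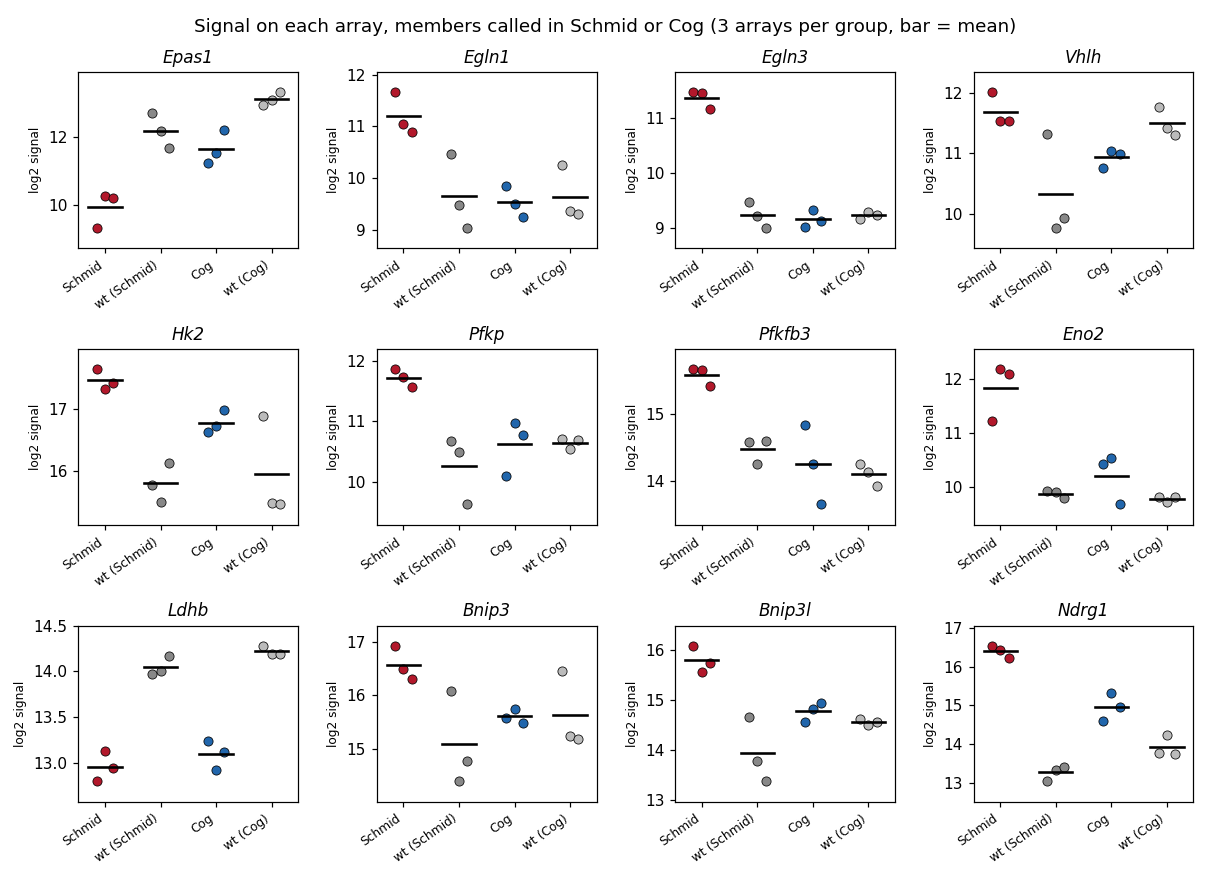
Log2 signal on each array for the members called in Schmid or in Cog, 1 panel per gene, with 3 points and the mean for each of the 4 groups. In all of the panels the 3 Schmid points stand apart from the 3 points of their wildtype, and Ndrg1, Epas1, Ldhb and Vhlh also separate in Cog, Vhlh without passing the test.

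Uptake of glucose was represented by its main carrier. Slc2a1, the glucose transporter GLUT1, read 17.22, 17.63 and 17.67 in Schmid, 16.80, 16.44 and 16.44 in Wt_Schmid, 16.30, 15.93 and 15.96 in Cog, and 15.94, 16.48 and 16.33 in Wt_Cog. The Schmid arrays were the highest of the 12, and the Cog arrays overlapped their wildtype. Slc2a1 was 1.92-fold higher in Schmid, a log2 difference of 0.94 ± 0.19 that passed the adjusted p (limma, 0.0063) but fell short of 2-fold, and it differed by -0.19 in Cog. The neuronal-type carrier Slc2a3 differed by 0.11 in Schmid. The lactate exporter Slc16a3 differed by -0.09 ± 0.68, with Schmid arrays spread from 15.01 to 17.69.

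Phosphorylation of the hexose was marked by Hk2, the hexokinase that HIF1 is known to induce. Its log2 signals were 17.65, 17.33 and 17.42 in Schmid, 15.76, 15.49 and 16.13 in Wt_Schmid, 16.63, 16.73 and 16.98 in Cog, and 16.89, 15.47 and 15.45 in Wt_Cog. Schmid lay above every other array, whereas Cog overlapped Wt_Cog through replicate 1 of that wildtype. Hk2 was 3.19-fold higher in Schmid (1.67 ± 0.34, limma adjusted p = 0.0068) and differed by 0.84 in Cog (adjusted p = 0.19). Hk1, the housekeeping hexokinase, differed by -0.46 and -0.98 in the mutants (adjusted p of 0.41 and 0.19), and the isomerase Gpi1 by -0.01 and -0.44.

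Phosphofructokinase, the committed step, changed by isoform. The platelet isoform Pfkp read 11.87, 11.74 and 11.57 in Schmid, 10.67, 10.49 and 9.62 in Wt_Schmid, 10.10, 10.98 and 10.78 in Cog, and 10.71, 10.54 and 10.69 in Wt_Cog. Schmid stood above all other arrays, and Pfkp was 2.76-fold higher there (1.46 ± 0.28, limma adjusted p = 0.0050). The liver isoform Pfkl read 13.58, 13.55 and 13.42 in Schmid, 12.79, 12.46 and 12.64 in Wt_Schmid, 12.44, 12.26 and 11.91 in Cog, and 11.91, 12.65 and 12.76 in Wt_Cog, again with only Schmid apart. Its 1.85-fold difference (0.89 ± 0.22) passed the adjusted p (limma, 0.017) and not the fold threshold. The muscle isoform Pfkm was on the other side, with 12.43 to 12.96 in Schmid below 13.46 to 13.71 in Wt_Schmid, a log2 difference of -0.91 ± 0.22 (adjusted p = 0.014) that was also under 2-fold.

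Fructose 2,6-bisphosphate, made and removed by the Pfkfb enzymes, is the strongest activator of phosphofructokinase. Pfkfb3, the isoform with the highest kinase activity, read 15.67, 15.66 and 15.42 in Schmid, 14.58, 14.25 and 14.59 in Wt_Schmid, 14.84, 14.26 and 13.65 in Cog, and 14.26, 14.14 and 13.92 in Wt_Cog. Schmid was above all other arrays, at 2.16-fold its wildtype (1.11 ± 0.25, limma adjusted p = 0.012), and the call was lost without Wt_Schmid replicate 2, where the fold change was just under 2 (adjusted p = 0.049). It was also lost with the processed signal at the 75th percentile (0.98, adjusted p = 0.074) and with the mean of all Pfkfb3 probes (0.10, adjusted p = 0.58). Pfkfb2, an isoform regulated by phosphorylation, read 9.93, 9.20 and 9.41 in Schmid, 10.11, 10.38 and 10.61 in Wt_Schmid, 10.23, 10.61 and 10.47 in Cog, and 9.91, 10.29 and 10.08 in Wt_Cog. Schmid was below its wildtype, at -0.85 ± 0.21 (adjusted p = 0.015), which is under 2-fold. Pfkfb1 and Pfkfb4 differed by 0.19 and 0.44 in Schmid, and neither passed.

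In lower glycolysis, triose phosphates become pyruvate and ATP is regained. Schmid was above its wildtype on every array for 6 of 8 genes there, beside 18.7% of all genes. Pgk1, phosphoglycerate kinase, read 18.70, 18.11 and 18.20 in Schmid, 17.74, 17.21 and 17.35 in Wt_Schmid, 17.42, 17.51 and 17.36 in Cog, and 17.88, 17.68 and 17.35 in Wt_Cog. Pgam1, the mutase that follows it, read 18.49, 18.30 and 18.15 in Schmid, 17.85, 17.03 and 17.21 in Wt_Schmid, 17.73, 17.53 and 17.37 in Cog, and 17.93, 17.48 and 17.56 in Wt_Cog. Both separated in Schmid only and passed the adjusted p at less than 2-fold, Pgk1 by 0.91 ± 0.20 (limma adjusted p = 0.0095) and Pgam1 by 0.95 ± 0.21 (adjusted p = 0.011). The isomerase Tpi1 was 1.44-fold higher (adjusted p = 0.014). Eno2, the enolase first described in neurons, read 11.22, 12.19 and 12.09 in Schmid, 9.93, 9.91 and 9.79 in Wt_Schmid, 10.42, 10.54 and 9.68 in Cog, and 9.81, 9.72 and 9.81 in Wt_Cog. It was the 1 enzyme of lower glycolysis past both thresholds, at 3.88-fold in Schmid (1.96 ± 0.27, limma adjusted p = 9.9e-04), and 2 of the 3 Cog arrays exceeded their wildtype without passing (0.43, adjusted p = 0.39). The aldolases Aldoa and Aldoc differed by 0.26 and 0.64 and pyruvate kinase (Pkm2) by -0.18 in Schmid, with no adjusted p at or under 0.05. Eno1 was above background on only 2 Schmid arrays, so its difference of 0.26 carries little signal.

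Transcripts of the lactate dehydrogenase subunits were read separately. Ldha, whose subunit favours lactate production and which HIF1 is known to induce, read 17.27, 17.45 and 17.31 in Schmid, 17.22, 16.99 and 17.39 in Wt_Schmid, 17.89, 17.87 and 17.37 in Cog, and 17.64, 17.03 and 17.30 in Wt_Cog. The groups overlapped in both mutants. Ldha differed by 0.15 ± 0.19 in Schmid (limma adjusted p = 0.60), and its Cog difference was 0.39 ± 0.19 (adjusted p = 0.28). The dimmer Ldha probe differed by 1.03 in Schmid (adjusted p = 0.060). Ldhb, whose subunit favours lactate oxidation, read 12.80, 13.13 and 12.94 in Schmid, 13.97, 14.01 and 14.17 in Wt_Schmid, 13.24, 12.92 and 13.12 in Cog, and 14.28, 14.19 and 14.19 in Wt_Cog. Both mutants were below both wildtype groups on every array. Ldhb was 2.14-fold lower in Schmid (-1.10 ± 0.12, limma adjusted p = 3.8e-04) and 2.18-fold lower in Cog (-1.13 ± 0.12, adjusted p = 0.0022), and the difference between these changes was 0.03 ± 0.17. The Schmid call was lost with normexp at the 75th percentile (-0.90) and under limma's treat, which tests against 2-fold. The Cog call was lost under 6 of 29 alternatives, among them the processed signal after quantile normalization (-0.89) or at the 75th percentile (-1.06, adjusted p = 0.13) and a row trend removed (-0.98). The pyruvate dehydrogenase kinases, which hold pyruvate back from the mitochondrion, differed by 0.10 for Pdk1 (adjusted p = 0.91) and 0.85 for Pdk3 (adjusted p = 0.070) in Schmid.

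Among the effectors, Ndrg1 had the largest change of all members. Ndrg1, a stress-responsive gene induced by hypoxia, read 16.54, 16.43 and 16.23 in Schmid, 13.04, 13.34 and 13.42 in Wt_Schmid, 14.59, 15.32 and 14.95 in Cog, and 13.77, 14.24 and 13.74 in Wt_Cog. Neither mutant overlapped its wildtype, and Schmid stood above Cog. Ndrg1 was 8.81-fold higher in Schmid (3.14 ± 0.21, limma adjusted p = 4.0e-05) and 2.05-fold higher in Cog (1.04 ± 0.21, adjusted p = 0.023). The Cog call lay close to the 2-fold threshold and was lost under 14 of 29 alternatives, among them without Cog replicate 2 (0.85), Cog replicate 3 (1.04, adjusted p = 0.058), Wt_Cog replicate 1 (0.96) or Wt_Cog replicate 3 (0.95).

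The mitophagy receptors Bnip3 and Bnip3l were also higher in Schmid. Bnip3l read 16.08, 15.56 and 15.74 in Schmid, 14.66, 13.78 and 13.38 in Wt_Schmid, 14.57, 14.83 and 14.94 in Cog, and 14.63, 14.51 and 14.57 in Wt_Cog. Schmid lay above all others, at 3.61-fold its wildtype (1.85 ± 0.28, limma adjusted p = 0.0014). Bnip3 read 16.92, 16.49 and 16.30 in Schmid, 16.08, 14.39 and 14.76 in Wt_Schmid, 15.58, 15.74 and 15.48 in Cog, and 16.45, 15.23 and 15.18 in Wt_Cog. Its 2.82-fold difference (1.50 ± 0.44, limma adjusted p = 0.033) had the wildtype replicate 1 of each background nearest to the Schmid values. The Bnip3 call was lost with only the groups compared in the fit (adjusted p = 0.065), with the processed signal after quantile normalization (1.44, adjusted p = 0.055), without any 1 of the 3 Schmid replicates (1.32, 1.54 and 1.63), without Wt_Schmid replicate 2 (1.15) or without Wt_Schmid replicate 3 (1.34). Ddit4, an inhibitor of mTORC1, and the vasodilator peptide Adm differed by -0.12 and -0.10 in Schmid and by -0.82 and -0.68 in Cog, with no adjusted p at or under 0.05.

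In Cog few members changed. Of the 37 genes, 1 was called higher (Ndrg1) and 2 lower (Epas1 and Ldhb), beside 1.89% of all genes higher and 0.837% lower. An unadjusted p under 0.05 was seen for 9 members, beside 6318 of all 27962 genes. The median log2 difference was -0.19 against 0.00 over all genes, from -1.46 to 1.04. Cog arrays lay wholly above their wildtype for 1 member and wholly below it for 6, where 17.2% and 13.2% of all genes did so. Of the 10 genes called higher in Schmid, 5 had a positive and 5 a negative difference in Cog. Egln1 and Egln3, among the negative ones, were above background on no Cog array, so their sign was not measured. Among the rest, Pfkp (-0.03 ± 0.28), Bnip3 (-0.02 ± 0.44), Bnip3l (0.21 ± 0.28) and Pfkfb3 (0.14 ± 0.25) differed by less than their SE.

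Whether the mutants differed was tested on the difference of their changes, each against its own wildtype. That difference was called higher in Schmid for 10 members and lower for 1, beside 4.38% and 7.02% of all genes, with a member median of 0.70 against -0.05 over all genes. Egln3 was among the 10, but with no array of Cog or Wt_Cog above background its change in Cog was not measured, and no size is given. The others were Ndrg1 (log2 difference of the changes 2.10 ± 0.29, limma adjusted p = 0.0016), Vhlh (1.93), Bnip3l (1.64), Eno2 (1.52), Pfkp (1.49), Slc2a1 (1.13), Pfkl (1.12), Pgk1 (1.12) and Pgam1 (1.06). Slc2a1, Pfkl, Pgk1 and Pgam1 were called here without being called in Schmid itself, since a small negative value in Cog added to a rise just under 2-fold. Pfkfb2 was the member lower in Schmid than in Cog, by 1.20 (adjusted p = 0.021). Over 27 alternatives the call was lost under 16 for Pgam1, 14 for Pfkl, 11 for Pfkp, 7 each for Vhlh and Pgk1, 4 for Eno2, 2 each for Bnip3l and Slc2a1 and 1, treat, for Ndrg1. Leaving out a single array ended the call for Pgam1 with any array but Cog replicate 1 and Wt_Schmid replicate 1, and for Pfkl with any but Cog, Wt_Cog and Wt_Schmid replicate 1. The Pfkp call was lost without Cog replicate 1, Schmid replicate 1 or 2 or any Wt_Cog replicate. Vhlh and Pgk1 lost theirs without Schmid replicate 1, Wt_Cog replicate 1 or 2 or Wt_Schmid replicate 2 or 3, and Vhlh also without Cog replicate 1. Eno2 lost it without Schmid replicate 2 or 3. Pfkfb2 lost the call under 7 alternatives, among them without Schmid replicate 3, and its sign changed with the mean of its probes (0.03). Of the 10 genes called higher in Schmid, 6 were called in the difference, and Hk2 (0.83, adjusted p = 0.26), Pfkfb3 (0.97, adjusted p = 0.091), Bnip3 (1.52, adjusted p = 0.12) and Egln1 (adjusted p = 0.061, its Cog arrays not above background) were not, so a difference between the mutants was not shown for these 4.

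Between the wildtype groups no member was called by limma, beside 0.554% of all genes. An unadjusted p under 0.05 was seen for 7 of the 37 members, beside 4254 of all 27962 genes. The members' median difference of Wt_Cog from Wt_Schmid was 0.15, and the largest was that of Vhlh at 1.17 (adjusted p = 0.15). That gap enters the Vhlh difference of the changes between the mutants (1.93). The Wt_Cog values of Vhlh (11.76, 11.42 and 11.30) overlapped those of Schmid (12.01, 11.53 and 11.53). Within the Schmid background, Wt_Schmid replicate 1 was the highest of its 3 arrays for 22 of 37 members (59.5%), beside 26.2% of all genes, and Wt_Schmid replicate 2 for 1 member (2.70%), beside 40.8%. Replicate 1 was also the highest wildtype array for 7 of the 10 genes called higher in Schmid. The number of those genes rose from 10 to 14 without Wt_Schmid replicate 1 and fell to 6 without Wt_Schmid replicate 2 and to 7 without Wt_Schmid replicate 3.

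Of the 18 genes with several probes, 13 had the same Schmid call at every probe and 17 the same Cog call, while the probes of 8 differed in sign in Schmid. A dimmer probe of Pdk1 (A_51_P406429) read 13.89, 13.24 and 13.29 in Schmid against 12.86, 11.26 and 11.78 in Wt_Schmid, with no overlap, and 12.24, 11.90 and 11.35 in Cog against 12.46, 11.84 and 11.51 in Wt_Cog. It was called at 2.84-fold (1.50 ± 0.41, limma adjusted p = 0.025) where the brightest Pdk1 probe was not, and lost the call without Schmid replicate 1 (1.30) or 3 (1.60, adjusted p = 0.051) and without Wt_Schmid replicate 2 (1.15) or 3 (1.41). A dimmer Pfkp probe (A_52_P223083) was called at 7.37-fold (2.88 ± 0.83, adjusted p = 0.031) with wildtype values of 11.59, 8.26 and 11.81, and another (A_52_P572045) was not (0.45, adjusted p = 0.090). Eno2 was called at both probes, and since the dimmer one was above background on no Wt_Schmid array, it is given as at least 3.96-fold higher in Schmid. Bnip3l was called at both probes, with log2 differences of 1.85 and 2.12. The dimmer Pfkfb3 probe A_52_P138126 was above background on no Schmid array and at least 1.72-fold higher in Wt_Schmid (adjusted p = 0.0089), opposite to the brightest probe, and a further one (A_52_P362917) differed by 0.05. In the difference between the mutants, dimmer probes of Hk1 and Aldoc were called where the brightest was not. The Hk1 probe A_52_P9337 read 9.30, 9.43 and 9.43 in Schmid, 9.98, 10.43 and 10.17 in Wt_Schmid, 10.21, 10.08 and 10.27 in Cog, and 9.71, 9.86 and 9.98 in Wt_Cog. Schmid lay below its wildtype and Cog above its own, with a difference of the changes of -1.14 (limma adjusted p = 0.0033). It was no longer called under 4 of 26 alternatives, among them no background subtraction (-0.79) and a row trend removed (-0.73). This Hk1 probe was well above background on 1 Schmid, 3 Wt_Schmid, 2 Cog and 2 Wt_Cog arrays, so its Schmid values lie near the floor. The Aldoc probe A_51_P425284 read 12.35, 13.17 and 12.78 in Schmid, 11.79, 12.14 and 12.46 in Wt_Schmid, 11.32, 10.39 and 10.19 in Cog, and 11.41, 11.62 and 11.84 in Wt_Cog. Schmid overlapped its wildtype and Cog lay below its own, with a difference of 1.62 (adjusted p = 0.032) that was lost under 10 of 26 alternatives, among them leaving out replicate 2 or 3 of Cog, Schmid or Wt_Cog, or Wt_Schmid replicate 2.

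**Figure D4:**
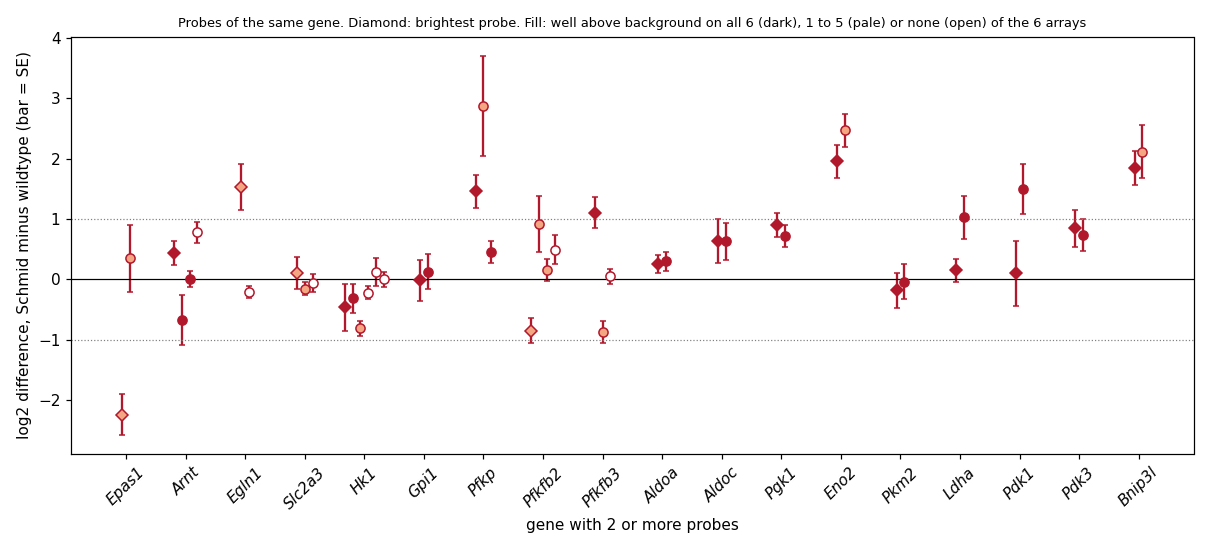
Log2 difference of Schmid from Wt_Schmid for every probe of the 18 genes with several probes, with the brightest probe as a diamond and the fill showing on how many of the 6 arrays a probe was well above background. Open points, above background on none of these arrays, lie within 1 log2 unit of zero, and the probes of Bnip3l and Eno2 lie together at the top right.

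The rest of both pathways was looked at through lists chosen by function. Of 27 other hypoxia response genes measured, 6 were called higher and 1 lower in Schmid, beside 5.80% and 5.75% of all genes. Their median log2 difference was 0.43 against -0.09 over all genes. None was called in Cog by limma, where 1.89% of all genes were called higher and 0.837% lower. In Cog 7 of the 27 had an unadjusted p under 0.05, beside 6318 of all 27962 genes. The endoplasmic reticulum oxidase Ero1l was 8.14-fold higher (3.03 ± 0.25, limma adjusted p = 9.5e-05), with Schmid arrays at 16.29, 16.15 and 15.76 and Wt_Schmid arrays at 13.36, 13.14 and 12.63. Ankrd37 (2.25), the nuclear receptor Rora (2.15) and the carbonic anhydrase Car9 (1.50) were higher too, whereas Tgfb3, a growth factor of the TGF-beta family, was 7.83-fold lower (adjusted p = 2.1e-05). Bhlhb2 was also called higher (1.37) and is named here after its value was seen. Vegfa, the angiogenic growth factor and a textbook HIF target, read 15.08, 14.61 and 14.34 in Schmid against 15.03, 15.21 and 14.41 in Wt_Schmid and differed by -0.21 ± 0.28 (adjusted p = 0.62), and was likewise chosen after its values were seen.

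Of 25 other glycolysis genes, 2 were called higher in Schmid, the pyruvate dehydrogenase subunit Pdhb (1.55, limma adjusted p = 9.0e-04) and Adpgk, which phosphorylates glucose with ADP (1.01, adjusted p = 0.016), and 2 were called lower, among them the hexokinase Hk3 (-1.07, adjusted p = 0.0028). The median of that list was -0.26, against -0.09 over all genes. In Schmid 5.80% of all genes were called higher and 5.75% lower. The few calls in this list and those that follow in this paragraph therefore say little about the lists as a whole. The pyruvate dehydrogenase kinase Pdk4 was lower in Cog (-1.15, adjusted p = 0.015). Among 20 glycogen genes 1 was called, Pgm3, a phosphoglucomutase family member of hexosamine synthesis, at 1.72 in Schmid (adjusted p = 0.013), with a list median of 0.04. Among 7 pentose phosphate genes the lactonase Pgls was lower in Schmid (-1.48, adjusted p = 0.030), with a median of -0.13. None of the glycogen or pentose phosphate genes was called in Cog. Each of these lists held 3 genes at an unadjusted p under 0.05 in Cog, beside 6318 of all 27962 genes.

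The remaining marker lists served as a check on other cells in the dissected zone. In Schmid, 1 of 9 chondrocyte markers (Col11a2), 1 of 8 osteoblast markers (Col1a1) and 1 of 8 osteoclast markers (4833422F24Rik) were called lower, and of 9 neutrophil markers Lcn2 was higher and Prtn3 lower. In Cog, the osteoblast marker Dmp1 was lower and Prtn3 higher, and no red cell marker was called. Over all genes, 5.80% were called higher and 5.75% lower in Schmid, and 1.89% higher and 0.837% lower in Cog. None of 12 skeletal muscle markers was called in either mutant by limma. An unadjusted p under 0.05 was seen for 2 in Schmid and 0 in Cog, beside 11305 and 6318 of all 27962 genes. The log2 of the muscle markers' summed signal nevertheless spanned 13.95 to 17.46 in Schmid and 17.09 to 18.13 in Wt_Schmid. It spanned 13.78 to 14.69 in Cog and 14.08 to 18.50 in Wt_Cog. Muscle and red cells are rich in glycolytic enzymes, and the part of these lists in the members' values was not tested.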

How the data were processed

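RNA from the hypertrophic zone of 12 mice (3 per group) was amplified in 2 linear rounds, labelled with Cy3 and hybridized to 1-colour 44K arrays by the authors, who extracted spot signals with Agilent Feature Extraction 9.5.3. The intensity of each spot and its local background were used as deposited. A deposited series matrix of log2 values, made by the authors, served as an alternative.

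Outlier and control spots were dropped, background was corrected by normexp (offset 50), arrays were quantile normalized and spots of a probe averaged. limma fitted the 4 groups to all 12 arrays (8 residual degrees of freedom), each mutant against its own wildtype, with Benjamini-Hochberg adjustment over all probes. A call needed an adjusted p of at most 0.05 and 2-fold. The scripts were tested on simulated data. R 4.3.3, limma 3.58.1, data.table (1.17.8) and statmod 1.5.0 were used. The "at least" fold changes set the lowest signal well above background in place of a dimmer value.

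Every member is accounted for, with values per array for called members, for Hif1a, Epas1, Egln3, Slc2a1 and Ldha, and for members called only at a dimmer probe. From other lists up to 6 called genes per list, those with the largest absolute change, were named, except that some are not reported here. Members, lists and tests were chosen with earlier results of these data known.

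No label ties a replicate number to a litter or day. Deviations from the group mean of same-numbered arrays correlated over 41141 probes by 0.193, 0.171 and 0.0660 for Schmid with Wt_Schmid and by -0.116, 0.0721 and -0.106 for Cog with Wt_Cog. Restricted to 12807 bright probes, detected on every array, the values were 0.306, 0.283 and 0.117 for Schmid and -0.209, 0.153 and -0.201 for Cog. All 3 Schmid pairs were thus above 0.1 over bright probes and not over all probes. For Wt_Schmid with Wt_Cog the values were 0.407, 0.0464 and 0.190 over all probes and 0.505, 0.115 and 0.274 over bright ones. The 2 wildtype arrays numbered 1 had the largest correlation. For Schmid with Cog the values over all probes were -0.140, -0.0169 and -0.0384. The numbers were not taken as pairs, and the block is given as an alternative. Other background corrections, scalings, filters, probe summaries, blocks and left-out arrays were tried as alternatives.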

Additional observations from a re-analysis of the deposited data

Results flagged for a closer look

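The change in Schmid differed from the change in Cog, by a test of the difference itself, for 11 of the 37 members, 10 higher and 1 lower. Of all 27962 genes, 4.38% were called higher in this difference and 7.02% lower. Egln3 was 1 of the 11, but no array of Cog or Wt_Cog was well above background for it, so no size is given. In log2 units (change in Schmid minus change in Cog, limma adjusted p at or under 0.05), the values of the other 10 were 2.10 for Ndrg1, 1.93 for Vhlh, 1.64 for Bnip3l, 1.52 for Eno2, 1.49 for Pfkp, 1.13 for Slc2a1, 1.12 for Pfkl, 1.12 for Pgk1, 1.06 for Pgam1 and -1.20 for Pfkfb2. Over 27 alternatives the call was lost under 16 for Pgam1, 14 for Pfkl and 11 for Pfkp, and under 1 to 7 for the others, and Pfkfb2 also changed sign under 1. The mutants lay on different slides, and genotype and slide cannot be told apart in these differences.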

How the results depend on the processing

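Of 29 called log2 fold changes followed over up to 29 alternatives each, 810 of 811 values kept their direction and 162 were no longer called. Egln3 and Ndrg1 in Schmid kept the call under every alternative, and Bnip3l, Eno2, Hk2 and Pfkp in Schmid and Ndrg1 in the difference lost it only under limma's treat, which tests against 2-fold. Members called higher in Schmid numbered 10 under the main settings and 2 under treat (Egln3 and Ndrg1), and those lower 0 under treat and 1 with the mean of all probes of a gene. In Cog, 0 were higher and 0 lower with the scanner's processed signal (quantile or 75th percentile), under treat, and with a trend over rows, or over rows and GC, removed. In Cog 0 were higher with normexp at the 75th percentile, 0 higher and 1 lower with only the groups compared, and 4 lower with array weights. Calls in the difference numbered 3 with the processed signal at the 75th percentile and 1 under treat, and between wildtypes 2 with array weights and 1 without both wildtype arrays of replicate 1. Leaving out 1 array gave 6 to 14 higher and 2 to 3 lower in Schmid, 0 to 1 higher and 1 to 2 lower in Cog, 6 to 14 in the difference and 0 to 1 between wildtypes. The difference had 6 without Schmid replicate 1 or Wt_Cog replicate 2, and 7 without Schmid replicate 2 or 3 or Wt_Schmid replicate 2 or 3.

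With the replicate number as a block, Cog had 1 lower member in place of 2, and 0 higher and 0 lower when the block was fitted to only the groups compared. With the 12 arrays fitted together, the block left the Schmid counts at 10 higher and 2 lower. The row and GC trend, the block on only the groups compared and the joint omission of both wildtype replicates 1 were chosen after seeing the data.

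Changes of sign came among differences that were not called, and at Pfkfb2. In Schmid, Pdk1 was -0.05 (processed signal, quantile) and -0.08 (row and GC trend), Ldha -0.23 (processed signal, 75th percentile) and -0.01 (row and GC trend), and Pfkfb2 0.18 with the mean of its probes, with 0.03 in the difference. In Cog, Pfkfb3 was -0.11 and -0.05 (processed and normexp 75th percentile) and Bnip3l -0.03 (normexp, 75th percentile) and -0.07 (mean of probes). In Cog with array weights, row trend, row and GC trend and no wildtype replicate 1, Bnip3 was 0.33, 0.08, 0.08 and 0.39, Pfkp 0.07, 0.07, 0.08 and 0.00, and Pgam1 0.03, 0.02, 0.03 and 0.02, and Pfkp was 0.02 with normexp at the 75th percentile. Leaving out 1 array spanned, in Cog, -0.15 to 0.44 for Pfkfb3, -0.21 to 0.23 for Pfkp, -0.24 to 0.39 for Bnip3, -1.16 to 0.20 for Pdk1 and -0.21 to 0.02 for Pgam1, and -0.09 to 0.26 for Pdk1 in Schmid. The causes were not tested. The processed signal at the 75th percentile moved the median of all probes to -0.40 in Schmid and 0.43 in Cog, and normexp at the 75th percentile to -0.35 in Schmid. Dim probes limit Egln1, Egln3, Eno1 and Slc2a3, which were above background on few arrays outside Schmid.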
